A study of Mus musculus with 8 samples.

Results

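A 4.46 Mb interval of mouse chromosome 17 runs from lower coordinates than Glo1 up to Rps18. Glo1 encodes glyoxalase 1, and Rps18 encodes a protein of the small ribosomal subunit. The genes described here are the 72 expressed genes of this interval. They are the genes on chromosome 17 (GRCm38) whose deposited start lies from 29.5 to 33.96 Mb, without ribosomal protein genes other than Rps18, and with a mean of at least 10 normalized counts in the XY or the XX table. Of 129 genes annotated there, 72 qualified, 56 lay under the minimum and 1, Rps28, was left out for its name, against 17282 of all 48440 genes that reach the minimum. The members were selected on position and mean level, and the bounds were set with the values of Glo1 and Rps18 in both sexes known, so the values below are a description and the counts are no independent support. Just under the minimum were Glp1r (9.44 in XY and 9.17 in XX) and Gm17276 (9.24 and 8.70), and just above it were Cyp4f15 (10.3 and 6.97) and Umodl1 (14.5 and 11.4).

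Polyadenylated RNA was measured in gonads of mouse embryos at embryonic day 11.5, a mixed tissue whose labels name pre-granulosa (XX) or pre-Sertoli (XY) cells. The 4 groups were XX wild type (WT), XX Kdm6b-null (genotype label knockout), XY WT and XY Kdm6b-null. Each group has 2 libraries, and each library was made from a pool of 2 gonad pairs. The tissue was untreated, the labels do not say whether pools came from separate litters, and p-values therefore measure the spread between these pools. The sources used here give neither the mouse strain nor the kind of null allele. Kdm6b, which encodes a histone H3 demethylase and is the gene named in the null genotype, lies on chromosome 11, whereas all genes described here lie on chromosome 17.

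Glyoxalase 1 is the first enzyme of the glyoxalase system, which uses glutathione to clear methylglyoxal, a reactive by-product of glycolysis. The interval has no single function: beside Glo1 it holds the axonemal dynein gene Dnah8, the transcription regulators Daxx and Wiz, the receptor gene Notch3, a cluster of cytochrome P450 genes of the Cyp4f family, a cluster of zinc finger genes, and, at its upper end, genes next to the major histocompatibility complex. Laboratory mouse strains are known to differ in this part of the genome, and some carry extra copies of a segment that includes Glo1. The strain origin and copy number of the segment in each pool were not tested.

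The starts of the 3 genes with the clearest values are shown first, since expression of all 3 differed between the same groups of libraries. Each sequence is the 250 bases before the RefSeq start of the gene (GRCm38.p6), 5′ to 3′ on the gene's strand, and capitals mark GGGCGG (the GC box), CCAAT or TGACNNNGC (the antioxidant response element) on either strand. The windows are chr17:30612660-30612909 (minus strand) for Glo1, chr17:30626686-30626935 (plus strand) for Dnah8 and chr17:33955666-33955915 (minus strand) for Rps18.
Glo1: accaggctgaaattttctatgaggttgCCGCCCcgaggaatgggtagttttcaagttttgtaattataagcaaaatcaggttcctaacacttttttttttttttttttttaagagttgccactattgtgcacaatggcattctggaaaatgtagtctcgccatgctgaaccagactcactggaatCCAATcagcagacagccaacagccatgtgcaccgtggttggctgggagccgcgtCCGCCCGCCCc
Dnah8: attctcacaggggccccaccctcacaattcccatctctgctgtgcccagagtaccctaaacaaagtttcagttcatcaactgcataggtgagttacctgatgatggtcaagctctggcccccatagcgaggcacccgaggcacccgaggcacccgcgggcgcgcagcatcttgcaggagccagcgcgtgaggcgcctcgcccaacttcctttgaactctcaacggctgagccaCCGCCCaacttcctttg
Rps18: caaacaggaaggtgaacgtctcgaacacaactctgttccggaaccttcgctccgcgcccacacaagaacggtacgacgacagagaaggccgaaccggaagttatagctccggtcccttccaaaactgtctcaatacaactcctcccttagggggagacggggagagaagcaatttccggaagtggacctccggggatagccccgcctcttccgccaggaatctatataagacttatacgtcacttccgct
The RefSeq start equals the deposited upper end, where a minus-strand gene begins, for Glo1 and lies 336 bases from it for Rps18. For Dnah8, on the plus strand, it lies 2582 bases from the deposited lower end. The Glo1 window held 3 GC boxes, where the last 2 overlap, and 1 CCAAT. The Dnah8 window held 1 GC box, and the Rps18 window held none of the motifs. Among the 56 members with a RefSeq window, each taken at the start nearest the deposited one, 31 (55.4%) held a GC box, against 32.7% of all 32851 windows. CCAAT stood in 36 of the 56 (64.3%) against 33.8%, and the antioxidant response element in 4 (7.14%) against 10.2%. CACGTG (the E-box) was in 5 (8.93%) against 6.02%, TATAAA in 4 (7.14%) against 12.4%, and AACAAT, the core bound by SRY and SOX proteins, in 2 (3.57%) against 9.42%. The 32851 windows come from genes at any level, with several windows for some genes. The members are expressed and have 1 window each, so these shares come from unlike sets. No motif of this set was in all 3 windows shown.

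The libraries held 19107103 to 19828638 counts on genes. The XX and XY libraries were normalized by the authors in separate tables, so XX and XY levels set side by side below are on scales that were not matched. Kdm6b had 2218 to 3399 normalized counts in the 4 WT and 1037 to 1249 in the 4 null libraries. The XX WT libraries stood furthest apart, whose replicates correlated at 0.964 on the log2 scale, where replicates of the other groups reached 0.980 to 0.985. In XX WT replicates 1 and 2 the germ cell markers summed to 1324 and 90.0, and the adrenal cortex markers to 1376 and 292. All 5 gonad somatic markers (Nr5a1, Gata4, Wt1, Lhx9 and Emx2) were present. Their summed level was 12697 and 14465 in XY WT, 8412 and 12852 in XY null, 8495 and 6924 in XX WT, and 9572 and 9535 in XX null. With no overlap, 3 of the 5 were lower in XY null (16.3% of all genes) and 3 were higher in XX null (27%). The median log2 differences of the 5 were -0.68 in XY and 0.33 in XX, opposite in sign to those of Glo1. So were the endothelial medians (-0.21 and 0.49). The erythroid (0.45 and -0.52), germ cell (0.78 and -0.22), macrophage (0.49 and -0.082) and adrenal cortex medians (0.060 and -2.19) had the signs of Glo1. Mesonephros (0.084 and 0.67) and neural crest medians (-0.32 and -0.53) had the same sign in both sexes. Summed levels of the gonad somatic markers overlapped in XY. Of 8 marker lists, none had summed levels that were higher in both XY null libraries and lower in both XX null libraries, which is the order of Glo1. The summed level of the erythroid markers (5 of 5 detected) was lower in XX null and overlapped in XY. It was 46208 and 74728 in XY WT, 53396 and 158856 in XY null, 151985 and 191373 in XX WT, and 93417 and 87617 in XX null. Singly, 2 of the 5 were lower in XX null with no overlap (22.5% of all genes). Summed macrophage markers (5 of 5) were higher in XY null (1607 and 1661) than in XY WT (1100 and 1130). They overlapped in XX (1518 and 1240 in WT, 1465 and 1199 in null). Singly, 3 of the 5 were higher in XY null with no overlap (16.6% of all genes). Summed endothelial markers (5 of 5) were higher in XX null (12916 and 12730) than in XX WT (8347 and 9487), and overlapped in XY. Singly, 4 of the 5 were higher in XX null with no overlap (27% of all genes). The part of these cell types in the values below was not tested, and in whole tissue fewer cells of a type and less RNA per cell cannot be told apart.

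Glo1 was high in XY Kdm6b-null and in XX WT gonads, and low in XY WT and XX Kdm6b-null gonads. Glo1 (ENSMUSG00000024026, chr17:30592866-30612659, minus strand) had 1487 and 1995 normalized counts in the XY WT libraries and 4147 and 3797 in the XY null libraries. In XX it had 3200 and 4692 in WT and 1352 and 1432 in the null. The genotype groups did not overlap in either sex, and they were ordered in opposite ways. Group means were 1741 ± 359 and 3972 ± 247 in XY WT and null, and 3946 ± 1056 and 1392 ± 56.0 in XX WT and null (SD, n = 2 each). The null mean was 2.28 times the WT mean in XY, whereas in XX the WT mean was 2.84 times the null mean. On the log2(normalized count + 1) scale the difference was 1.20 for XY (SE 0.15) and -1.48 for XX (SE 0.19).

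Dnah8 starts 11.7 kb above the upper end of Glo1, on the opposite strand, and had the same order of groups. Dnah8 encodes a heavy chain of the dynein that moves cilia and sperm tails. It had 39.6 and 80.7 normalized counts in XY WT, 238 and 150.3 in XY null, 147 and 168 in XX WT, and 39.9 and 40.4 in XX null. The null groups lay above WT in XY and below it in XX, with no overlap, and the XY replicates of each genotype differed more than those in XX. The log2 difference was 1.72 for XY (SE 0.41) and -1.94 for XX (SE 0.21). In the authors' deposited table Dnah8 passed in both sexes, with a DESeq2 log2 fold change of 1.69 for XY (adjusted p = 0.024) and of -1.97 for XX (adjusted p = 9.5e-05). Glp1r, the receptor of glucagon-like peptide 1, starts above Dnah8 and did not reach the level minimum, with 6.92 and 4.98 in XY WT, 16.6 and 9.26 in XY null, 17.5 and 16.2 in XX WT, and 0 and 3.03 in XX null. The value of 0 allows an expected count of up to 3 in that library, worth 2.99 normalized counts.

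Btbd9, on the lower side of Glo1, had this order in XY and overlapping groups in XX. Btbd9 encodes a BTB domain protein of neurons and had 1008 and 1139 normalized counts in XY WT and 1717 and 1658 in XY null. In XX it had 1056 and 1594 in WT and 1198 and 1159 in the null, so that both null libraries lay between the WT libraries. Its log2 difference was 0.65 for XY (SE 0.09) and -0.14 for XX (SE 0.20), and it passed in the authors' deposited table in XY (DESeq2 log2 fold change 0.65, adjusted p = 7.1e-04) and not in XX (adjusted p = 0.87). The XX difference was 0.16 without XX WT replicate 2 and -0.44 without XX WT replicate 1. Zfand3, which encodes an AN1 zinc finger protein and is the next member below, showed no such order in XY, with 2948 and 3109 in WT and 3021 and 3418 in the null.

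Rps18, 3.34 Mb above the upper end of Glo1, was also higher in XY null and lower in XX null gonads. Rps18 (chr17:33951999-33956001, minus strand) encodes a protein of the head of the small ribosomal subunit. It had 5918 and 5956 normalized counts in XY WT and 10605 and 11928 in XY null. It had 13985 and 14174 in XX WT, and 9161 and 5917 in XX null. The groups did not overlap in either sex, and XX null replicate 1 lay between XX null replicate 2 and the XX WT libraries. Group means were 5937 ± 26.8 and 11266 ± 935 in XY WT and null, and 14079 ± 133 and 7539 ± 2294 in XX WT and null (SD, n = 2 each). The log2 difference was 0.92 for XY (SE 0.09) and -0.94 for XX (SE 0.22). The XX difference was -0.62 without XX null replicate 2 and -1.25 without XX null replicate 1.

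Other genes of the small ribosomal subunit did not have this order. All 32 listed genes were measured. Their median log2 difference was -0.070 in XY, where 5 were above 0 and the highest was Rps2 (0.19), and -0.31 in XX, where 31 were below 0 and the lowest was Rps27a (-0.41). In XX 23 of the 32 had null values below both WT values, against 22.5% of all genes. In XY none had groups that did not overlap, against 16.6% of all genes with the null higher and 16.3% with it lower. By limma 0 passed in either sex (0 at an unadjusted p under 0.05 in XY and 2 in XX), and 0 in the authors' deposited tables. Rps18 therefore lay above the range of these genes in XY and below it in XX. Rps28, which lies in the interval but was left out by name, had 3967 and 3779 in XY WT and 3064 and 4219 in XY null, and overlapped in XX as well. Reads of Rps18 may be shared with near-identical copies elsewhere. Rps18-ps3 had 63.3 and 84.7 in XY WT, 19.5 and 56.6 in XY null, 53.4 and 32.4 in XX WT, and 38.9 and 68.7 in XX null.

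Vps52, next to Rps18, had the reverse order. Vps52 encodes a subunit of tethering complexes that receive vesicles at the Golgi and endosomes. It had 1415 and 1473 normalized counts in XY WT, 1120 and 1269 in XY null, 1107 and 928 in XX WT, and 1332 and 1504 in XX null. The groups did not overlap in either sex, and the log2 difference was -0.28 for XY (SE 0.09) and 0.48 for XX (SE 0.13). Its annotated span overlaps that of Rps18 by 190 bases on the opposite strand. The library kit marks strand, the strand setting of the counting was not found in the labels, and reads of that overlap may not be fully separated.

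**Figure D1:**
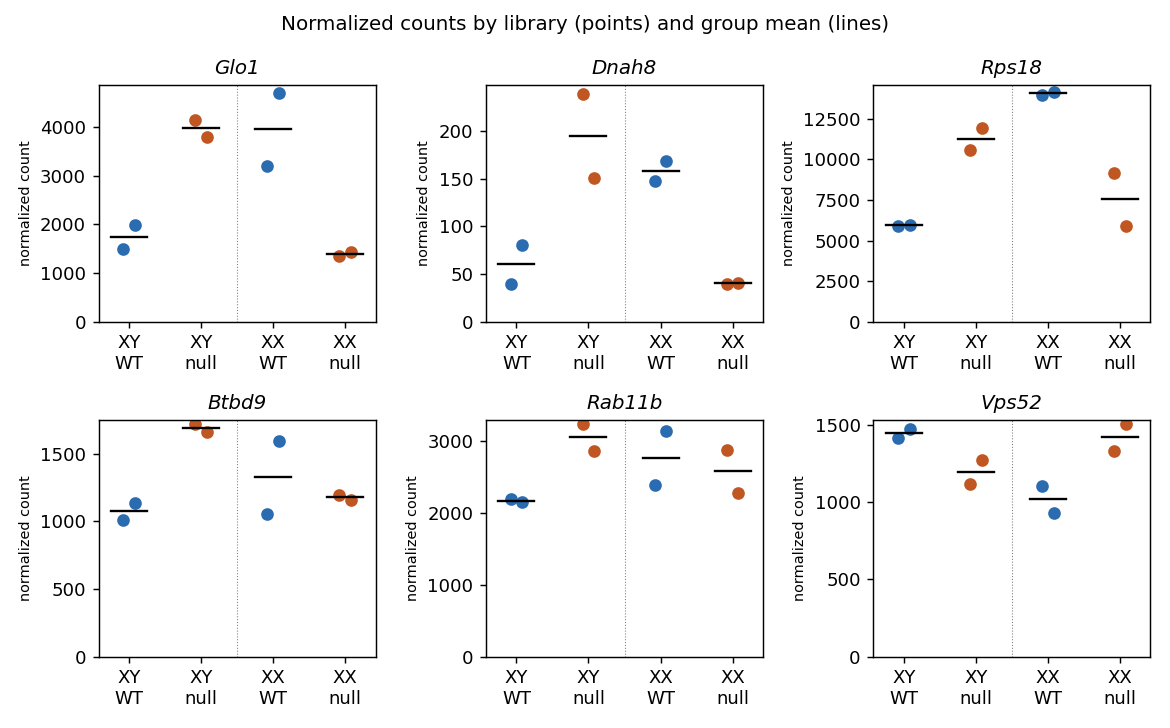
Normalized counts (linear axes from 0) of 6 genes in the 8 libraries, with WT in blue, Kdm6b-null in orange and group means as lines. Glo1, Dnah8 and Rps18 are high in XY null and XX WT, Btbd9 and Rab11b are apart in XY and overlap in XX, and Vps52 has the reverse order (XY and XX were normalized separately).

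The comparison of null with WT was made in each sex, and the difference between the sexes was then tested in 1 fit of all 8 libraries. In XY 50 of 72 members had a log2 difference above 0 (median 0.050), against 50% of all 16821 genes tested (median -0.00013). In XX 24 of 71 lay above 0 (median -0.10), against 50.1% of all 17028 genes (median 0.00068). The null groups did not overlap WT and were higher in 25 members in XY (34.7%, against 16.6% of all genes) and lower in 6 (8.33%, against 16.3%). In XX they were higher in 13 (18.3%, against 27% of all genes) and lower in 23 (32.4%, against 22.5%). For XY, the 5 Mb above the interval had the null higher in 37 of 111 genes and lower in 21 (median log2 difference 0.056). The 5 Mb below it had the null higher in 28 of 133 genes and lower in 21 (median 0.00019). The excess of genes higher in XY null was therefore not particular to the interval.

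No member passed by limma after adjustment over all genes. In XY 0 of 72 passed (0% of all genes did) and 11 had an unadjusted p under 0.05, against 4.96% of all genes. In XX 0 of 71 passed (0% of all genes) and 16 had an unadjusted p under 0.05, against 14% of all genes. For the XY effect minus the XX effect 0 of 71 passed (0% of 16567 genes) and 16 had an unadjusted p under 0.05, against 8.49%. For the mean of both effects 0 of 71 passed (0.0241% of 16567 genes) and 9 had an unadjusted p under 0.05, against 14.6%. The authors' deposited table called 5 of 72 members in XY (0.402% of 17890 genes were called), namely Glo1, Dnah8, Rps18, Btbd9 and Rab11b. All 5 were higher in the null (0.123% of all genes) and 0 lower (0.279%). The authors' deposited table called 4 members in XX (2.77% of 14704 genes). Of these, Glo1, Dnah8 and Rps18 were lower in the null (0.823%) and Notch3 was higher (1.95%).

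The genes that the authors' deposited tables call in both sexes with opposite signs numbered 3 of 14686 (0.0204%), and these were Glo1, Dnah8 and Rps18. The reverse combination, lower in XY null and higher in XX null, had 0 genes, and 11 genes (0.0749%) were called in both sexes with the same sign. By values alone, 11 of 71 members (15.5%) had groups that did not overlap in either sex and were higher in XY null and lower in XX null. The share was 2.55% over all genes, 0.752% of 133 genes in the 5 Mb below the interval, 4.55% of 110 genes in the 5 Mb above it and 4.47% of 447 genes in the rest of chromosome 17. The 11 were Glo1, Dnah8, Cyp4f16, Zfp811, Zfp870, Zfp952, Zfp955b, March2, Ndufa7, BC051226 and Rps18. Both counts, the 3 called genes and the 11, include Glo1 and Rps18, whose values were known when the interval's bounds were set. The reverse order was found in 2 members, Wdr46 and Vps52 (2.82%, against 2.62% of all genes). The null was higher in both sexes in 3 members (4.23%, against 6.37%) and lower in both in 1 (1.41%, against 4.97%). Across the 71 members the XY and XX differences had a Pearson correlation of -0.55, against 0.17 over all genes, and -0.20 over the 68 members other than Glo1, Dnah8 and Rps18. Neighbouring genes share libraries and are no independent points.

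**Figure D2:**
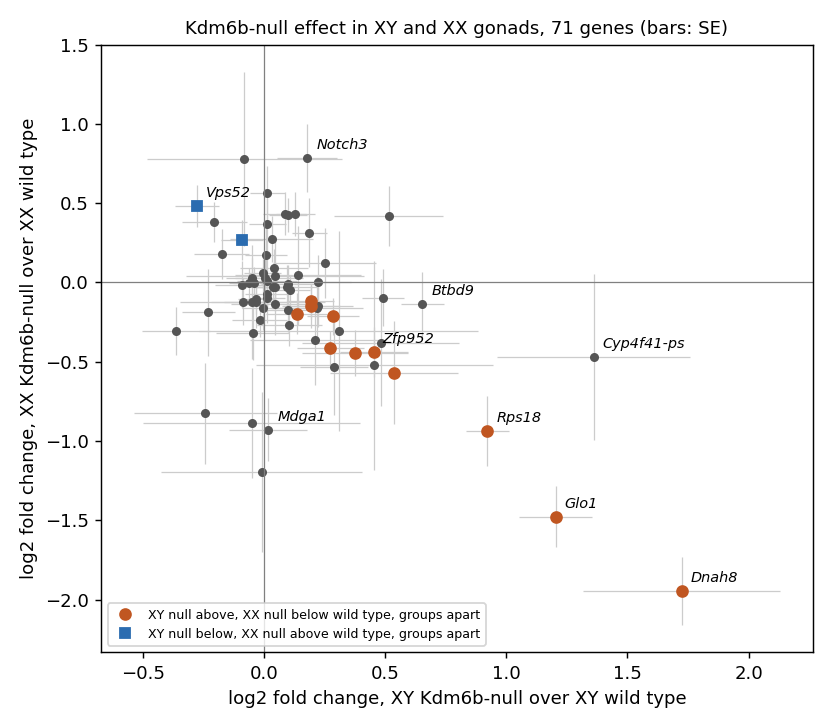
Log2 difference between Kdm6b-null and WT in XY (horizontal) and XX (vertical) for the 71 members with a mean of at least 10 in both tables, with standard errors as bars. Dnah8, Glo1 and Rps18 lie far down on the lower right, and most other members lie near 0 on both axes.

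The genes in this order were not spread evenly along the interval. Glo1 and Dnah8 were followed by 22 members over 1.57 Mb, from Umodl1 to Cyp4f17. None of these had the order of Glo1 (2.55% of all genes did) or its reverse (2.62%). Their median log2 differences were 0.0014 in XY and -0.065 in XX, and the largest in either direction were 0.48 and 1.20. In XX some had groups that did not overlap, among them Notch3 (0.79, higher in the null) and Cbs (-0.83, lower in the null). The stretch includes Pknox1, a homeobox cofactor gene, with 970 and 1019 normalized counts in XY WT, 1012 and 1027 in XY null, 998 and 1047 in XX WT, and 1040 and 968 in XX null. U2af1, a splicing factor gene, had 2794 and 2830, 2536 and 2869, 2891 and 3093, and 2909 and 3050 in the same groups. From Cyp4f16 to the upper end lie 40 members, of which 39 reached the minimum in both tables. Of these 39, 9 had the order of Glo1 (2.55% of all genes) and 2 its reverse (2.62%). The 9 include Rps18, whose values were known when the interval's bounds were set. The borders of these stretches were chosen after the values were seen.

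**Figure D3:**
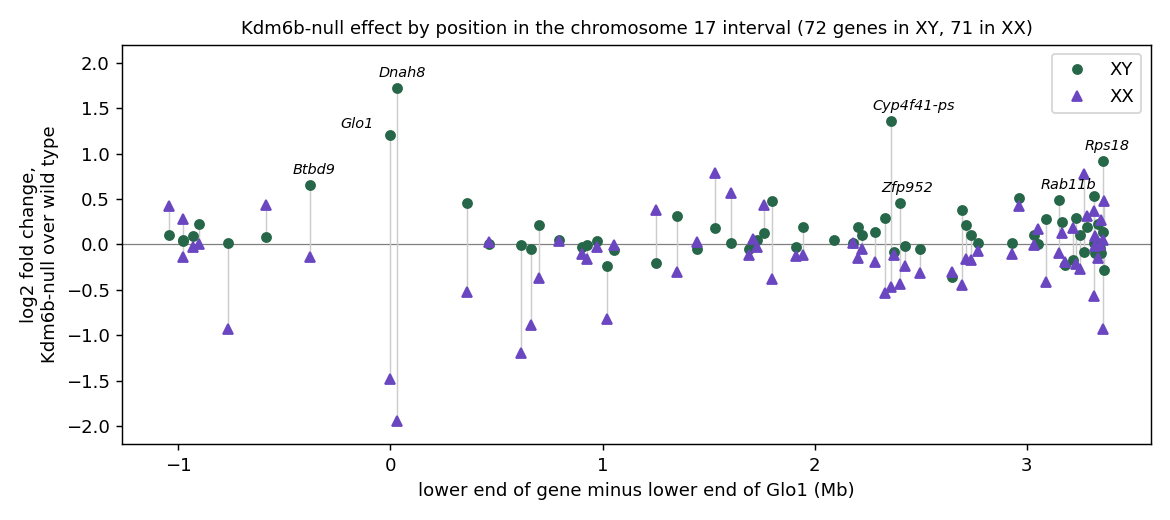
Log2 difference between Kdm6b-null and WT by distance of the gene's lower end from that of Glo1 (Mb), circles for XY and triangles for XX, joined per gene. Circles stand above and triangles below 0 at Glo1, Dnah8 and Rps18. Between Dnah8 and Cyp4f16 the largest distance from 0 is 0.48 in XY and 1.20 in XX.

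The zinc finger genes lie in the upper part. Of these, 4 of 14 (Zfp811, Zfp870, Zfp952 and Zfp955b) had the order of Glo1, against 2.55% of all genes. Zinc finger genes of this kind encode DNA-binding proteins, many of which silence transposable elements. Of the 14 members, 10 had a log2 difference above 0 in XY (median 0.10), against 50% of all genes, and 1 in XX (median -0.17), against 50.1%. In XY the groups were apart with the null higher in 6 (16.6% of all genes) and with the null lower in 1 (16.3%). In XX they were apart with the null lower in 8 (22.5% of all genes) and with the null higher in 0 (27%). Zfp952 had 317 and 294 normalized counts in XY WT, 461 and 379 in XY null, 416 and 499 in XX WT, and 364 and 310.1 in XX null. Its log2 differences were 0.45 (SE 0.14) and -0.44 (SE 0.16). Zfp955b had 218 and 194 in XY WT and 326 and 219 in XY null, with 269.7 and 292 in XX WT and 197 and 215 in XX null. Its nearest XY libraries, WT replicate 1 and null replicate 2, were at 218 and 219, so the XY order rests on a small gap. Zfp955a, its neighbour and relative, was lower in the null of both sexes, with 367 and 343 in XY WT, 252 and 303 in XY null, 395 and 341 in XX WT, and 275 and 320.2 in XX null. Zfp811 had 262 and 275 in XY WT, 313 and 302 in XY null, 299.8 and 327 in XX WT, and 272 and 292 in XX null. Zfp870 had 272 and 257 in XY WT, 300.4 and 281 in XY null, 318 and 319.6 in XX WT, and 288 and 269 in XX null. In both genes the groups were apart by small steps. Related zinc finger genes can exchange reads, so values of single members are uncertain.

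Of the Cyp4f genes, which encode fatty acid hydroxylases, Cyp4f16 had the order of Glo1. It had 475 and 464 in XY WT, 552 and 522 in XY null, 524 and 484 in XX WT, and 459 and 467 in XX null. Cyp4f13 was higher in XY null (246 and 235) than in XY WT (206 and 187), and in XX its groups overlapped (288 and 178 in WT, 189 and 129 in null). These genes are close relatives and may share reads.

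Among genes of trafficking, Rab11b stood out in XY. RAB11B is a GTPase of recycling endosomes. Rab11b had 2188 and 2141 normalized counts in XY WT and 3235 and 2861 in XY null, and in XX 2383 and 3130 in WT and 2871 and 2274 in the null. The groups were apart in XY and crossed in XX, with log2 differences of 0.49 (SE 0.09) and -0.10 (SE 0.18). In the authors' deposited table it passed in XY (DESeq2 log2 fold change 0.49, adjusted p = 0.015). March2, a membrane-bound ubiquitin ligase gene, had 379 and 444 in XY WT, 457 and 539 in XY null, 590 and 596 in XX WT, and 462 and 427 in XX null. The annotated span of March2 overlaps Hnrnpm by 1169 bases on the same strand. Of the 7 trafficking and folding genes listed, 4 had a log2 difference above 0 in XY and 3 in XX.

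Further members were apart in XY. Ndufa7, a subunit gene of respiratory complex I, had 1201 and 1227 in XY WT, 1351 and 1623 in XY null, 1658 and 1487 in XX WT, and 1452 and 1262 in XX null. Myo1f, a myosin gene of immune cells, was higher in the null of both sexes, with 96.9 and 125 in XY WT, 139 and 179 in XY null, 107 and 95.1 in XX WT, and 142 and 128 in XX null. Summed macrophage markers were also higher in XY null but overlapped in XX, and their part in the Myo1f values was not tested. Below WT in XY null were Angptl4, whose product inhibits lipoprotein lipase (690 and 618 against 529 and 587), Kank3, which encodes an adaptor of the cytoskeleton (556 and 604 against 479 and 551; it overlaps Rps28 by 3892 bases on the opposite strand), Wdr46 (1136 and 1119 against 1008 and 1114) and Rrp1b (1391 and 1371 against 1331 and 1338), the last 2 encoding nucleolar proteins. None of these passed by limma or in the authors' deposited table.

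In XX gonads a further set of members was higher in the null. Notch3, a receptor gene of mural cells of vessels and of other progenitors, had 2689 and 4158 normalized counts in XX WT and 5907 and 5629 in XX null. In XY it had 4320 and 4650 in WT and 5685 and 4531 in the null. Its log2 differences were 0.79 (SE 0.21) in XX and 0.18 (SE 0.12) in XY. The XX difference was 0.47 without XX WT replicate 1 and 1.10 without XX WT replicate 2. In the authors' deposited table it passed in XX (DESeq2 log2 fold change 0.75, adjusted p = 0.019). Wiz, which encodes a partner of histone H3K9 methyltransferases, had 2047 and 2627 in XX WT and 3126 and 3129 in XX null, and was also higher in XY null (3109 and 2854) than in XY WT (2793 and 2651). Zfand3 had 2185 and 2755, and 3277 and 3357. In these 3 genes XX WT replicate 1 was the lowest XX library. Summed endothelial markers were higher in XX null as well, and their part in the Notch3 value was not tested.

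Pfdn6, near Rps18, and Hnrnpm overlapped between genotypes in both sexes. Pfdn6, a subunit gene of the prefoldin chaperone, had 831 and 769.6 in XY WT, 768 and 787 in XY null, 834 and 869 in XX WT, and 813 and 884 in XX null. Hnrnpm, an RNA-binding protein gene of splicing, had 12309 and 12890 in XY WT, 12351 and 13000 in XY null, 10062 and 13623 in XX WT, and 12864 and 13505 in XX null. Daxx, a histone chaperone gene, overlapped in XY (1024 and 992 in WT, 1024 and 1011 in null) and was higher in XX null (1141 and 1062) than in XX WT (731 and 994). Cbs, which encodes the enzyme that joins homocysteine and serine, had 32.6 and 39.9 in XY WT, 33.2 and 27.8 in XY null, 54.3 and 40.5 in XX WT, and 27.9 and 24.2 in XX null. These 4 genes passed neither by limma nor in the authors' deposited tables.

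Lower in XX null, with overlapping groups in XY, was Mdga1. Mdga1 encodes a membrane-anchored adhesion protein of neurons and had 197 and 214 in XX WT and 122 and 95.0 in XX null, against 149 and 160, and 164 and 149, in XY. The XX calls depended on the XX WT libraries. Without XX WT replicate 2, limma called 17 of 71 members (11 higher and 6 lower), beside 20.5% of all genes, and without replicate 1 it called 4 (2 higher and 2 lower), beside 2.17%. For the mean of both effects 9 members were called without replicate 2 (7.71% of all genes) and 0 without replicate 1 (0.0181%). For the difference 1 was called without replicate 2 (0.241%), and that was Glo1. These fits assume that the lone WT library varies like the null libraries. Glo1 and Dnah8 were among the lower ones in both, with Glo1 at -1.20 and -1.75 without replicates 2 and 1, and Dnah8 at -1.85 and -2.04.

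The pattern across libraries was also compared with Glo1 directly. For each gene the log2 values were taken as deviations from the mean of the 4 libraries of the table, and the Pearson correlation with Glo1 was computed over the 8 deviations, as a description. The members most like Glo1, among those with a mean of at least 50 in both tables, were Dnah8 (0.97), Zfp811 (0.94), Rps18 (0.897), Zfp952 (0.89), March2 (0.89) and Zfp870 (0.84), and the least like it were Vps52 (-0.92), Kank3 (-0.70) and Sik1 (-0.63). Dnah8 and Zfp811 were the 2 of 70 members (2.86%) at 0.9 or more, against 35 of all 16566 genes other than Glo1 (0.211%), which include these 2. The Zfp811 differences were small (0.19 in XY and -0.15 in XX). The median correlation was 0.25 in the interval, -0.12 in the 5 Mb below, -0.0030 in the 5 Mb above and -0.035 over all genes. The highest XY library was a null library for 52 of 72 members (72.2%), against 55.2% of all genes, and the highest XX library was a WT library for 54 of 71 (76.1%), against 56% of all genes.

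**Figure D4:**
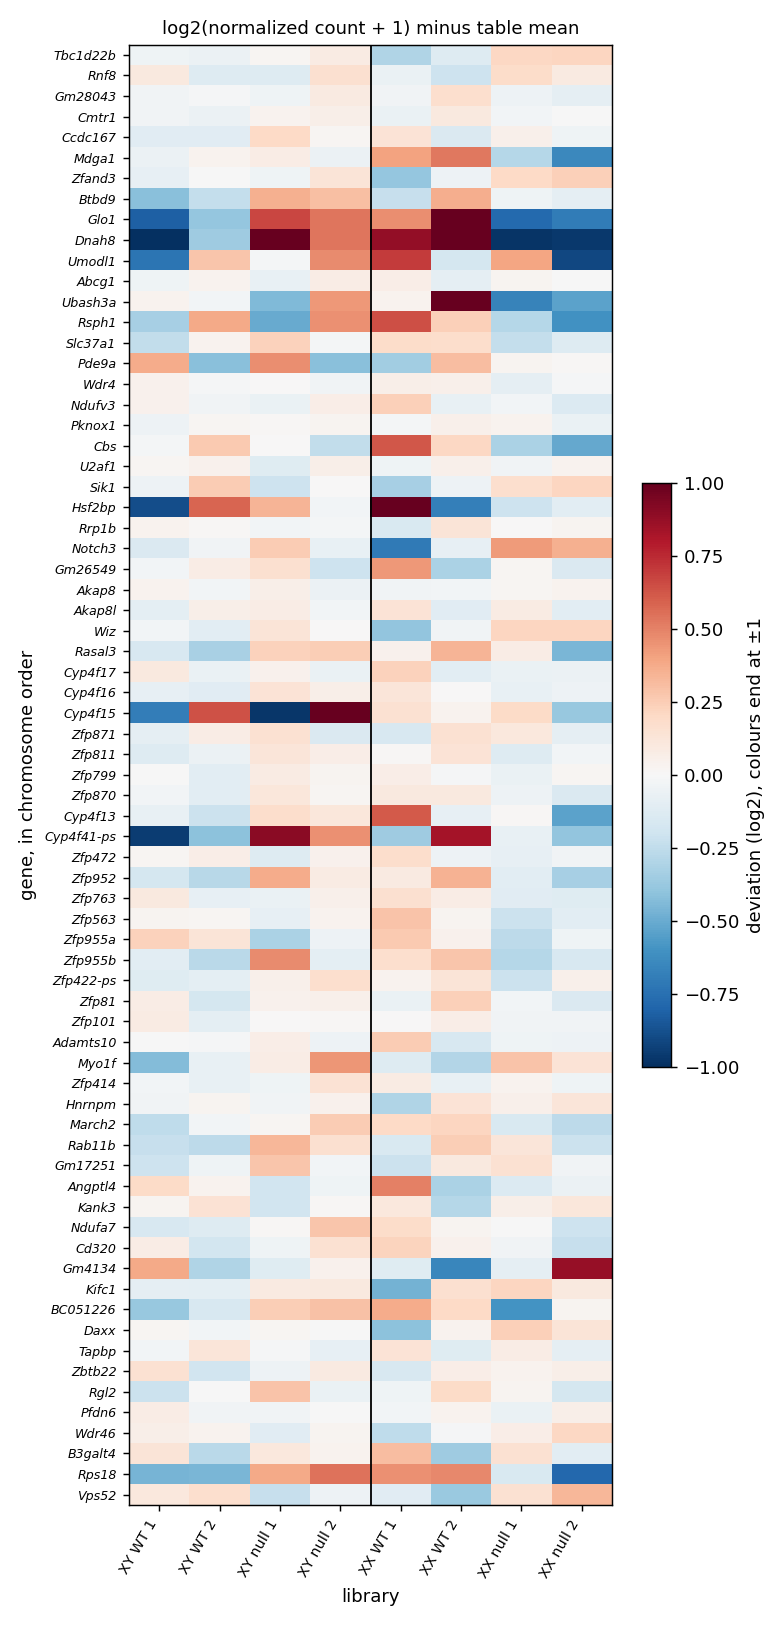
Deviation of log2(normalized count + 1) from the mean of the table's 4 libraries, for 71 of the 72 members in chromosome order (rows) and the 8 libraries (columns), red above and blue below the mean. Glo1, Dnah8 and Rps18 are blue in XY WT and XX null and red in XY null and XX WT, while most rows are pale.

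Genes that handle methylglyoxal besides Glo1 did not follow it as a group. All 16 listed genes were measured. In XY 9 had a log2 difference above 0 and 7 below (median 0.013), and in XX 7 above and 9 below (median -0.012). The lowest in XX was Fn3k, which encodes a kinase that removes sugar adducts from proteins (-1.47, with 33.0 and 26.3 in WT and 10.96 and 9.09 in null), a difference as large as that of Glo1. In XY Fn3k was also lower in the null (22.4 and 21.6) than in WT (26.7 and 25.9). Akr1b7, an aldose reductase gene, was at -1.43 in XX, where its groups overlapped, with XX WT replicate 1 highest (59.2 and 10.1 in WT, 11.96 and 6.06 in null). None passed by limma in either sex (0 at an unadjusted p under 0.05 in XY and 3 in XX) or in the authors' deposited tables. Hagh, which encodes glyoxalase 2, the second enzyme of the system, had 288 and 254 in XY WT, 219 and 246 in XY null, 292 and 229 in XX WT, and 253 and 246 in XX null. Gclm, a subunit gene of the enzyme that starts glutathione synthesis, was the 1 gene of the 16 with the order of Glo1 (2.55% of all genes). It had 423 and 432 in XY WT, 460.4 and 458 in XY null, 523 and 618 in XX WT, and 403 and 447 in XX null.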

How the data were processed

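Per the submitters' processing notes, DESeq2 2.11.40.8, featureCounts 2.0.8, STAR 2.7.11 and cutadapt 4.9 were used with GRCm38 (mm10), and the labels' protocols give polyadenylated RNA, a dUTP kit and paired reads of 100 bases. The sources used here give no strand setting, annotation release or filter, and the protocol speaks of 4 samples where 8 are listed. Values are signal as deposited by the authors, namely normalized counts of whole reads per gene that, as the values show, were divided by 1 size factor per library, XX and XY in separate tables. The authors' deposited DESeq2 tables hold, per gene, the log2 fold change, its error, the raw and adjusted p-value, and a Wald score that was not used. The XX comparison has no header, and its columns were read like those of the XY table after its means matched the normalized counts. Deposited starts count from 0 and are printed here from 1, except for the interval's bounds. All columns were matched to a sample by title.

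Here limma 3.58.1 (R 4.3.3) was run with a variance trend on log2(normalized count + 1), over all genes with a mean of at least 10, and p-values were adjusted by Benjamini-Hochberg at 0.05. On this scale changes of low genes are understated. Each sex was fitted alone, and the mean and the difference of the effects in 1 fit of 8 libraries. The script was tested on simulated data. Depth came from the step between values, read as 1 count, and covers counting error only. Motifs were searched in RefSeq promoter windows of GRCm38.p6. The rule for named genes took Glo1, Rps18, fixed neighbours, the authors' calls, up to 10 (XY) or 5 (XX) of the largest non-overlapping differences in each direction with a mean of at least 50, the genes most and least like Glo1, and up to 4 per role list. Members, lists and rules were chosen with earlier results of these data known. Alternatives were the pseudocount, the filter, rescaling, no variance trend, a replicate block, 1 fit of 8 libraries and each library left out. A single member that the rule takes is not reported here by name.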

Additional observations from a re-analysis of the deposited data

Results flagged for a closer look

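For 13 genes the null libraries all moved one way against WT in XY and all the opposite way in XX. The XY effect minus the XX effect, on the log2 scale, was 3.67 for Dnah8, 2.68 for Glo1, 1.86 for Rps18, 1.11 for BC051226, 0.89 for Zfp952, 0.82 for Zfp955b, 0.69 for March2, 0.50 for Ndufa7, 0.34 for Zfp811, 0.33 for Zfp870 and 0.31 for Cyp4f16. It was -0.76 for Vps52 and -0.36 for Wdr46. By limma none of these differences passed after adjustment over 16567 genes, with adjusted p of 0.22 for Glo1, 0.31 for Dnah8 and Rps18, and 0.57 to 0.61 for the others. With 2 libraries a group, such an order in either direction was met by 2.55% and 2.62% of all genes.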

How the results depend on the processing

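Of 46 differences of single genes, 582 values under alternatives were computed, of which 564 kept direction and side of the threshold, 15 newly passed and 3 changed sign. Over leave-outs, Btbd9 in XX ran from -0.44 to 0.16 (above 0 without WT replicate 2), and Rab11b in XX from -0.29 to 0.10 (above 0 without WT replicate 2, and at 0.072 without null replicate 2). With the replicate number as a block, 2 members passed in XY, beside 0.137% of all genes. They were Glo1 and Rps18 (limma adjusted p = 0.046 for each). Values of both were known when the interval's bounds were set, so these p-values are no independent support. With this block none passed in XX, in the mean or in the difference. The replicate numbers share no stated source: deviations of same-numbered libraries correlated at 0.25 in XY and -0.060 in XX over 17282 genes. Leaving out 1 library at a time, limma called 0 members in XY, 0 to 17 in XX, 0 to 9 for the mean of both effects and 0 to 1 for their difference, the highest each without XX WT replicate 2. The lone library of a group was assumed to vary like the others. The member called for the difference was Glo1 (2.40), whose values were known when the interval's bounds were set. The members' median log2 difference was then 0.069 to 0.089 in XY, -0.10 to -0.062 in XX, -0.0035 to 0.023 for the mean and 0.11 to 0.20 for the difference. With a mean of at least 50 the median was -0.041 in XX and 0.093 for the difference, and with rescaled libraries -0.12 and 0.13. The cause of these shifts was not tested.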
